A study of Mus musculus with 4 samples.

Results

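This report concerns 31 mouse genes of lipid synthesis, chosen by name from what their products do: 20 genes of cholesterol (sterol) synthesis and its control, and 11 genes of fatty acid synthesis and desaturation. All 31 were among the 54115 genes quantified and among the 18758 that passed the filter on low counts. The RNA came from bulk, snap-frozen primary tumours grown from injected MC38 cells, an established mouse colon adenocarcinoma line. Mice of 1 group received saline and mice of the other vanoxerine, an inhibitor of the dopamine transporter, at 25 mg/kg, both by intraperitoneal injection on 10 consecutive days. Each group had 2 libraries, called here saline 1, saline 2, vanoxerine 1 and vanoxerine 2. The labels name neither the host strain, age or sex nor the place where cells were injected, and they do not say that each library is a different animal. The p-values therefore rest on library-to-library spread, part of which may be technical.

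Cells make cholesterol from acetyl-CoA through mevalonate, the isoprenoid farnesyl diphosphate, squalene and lanosterol, and they make fatty acids from the same acetyl-CoA with NADPH as reductant. Both branches are controlled by the SREBP transcription factors: the product of Srebf2 acts mainly on sterol genes and that of Srebf1 mainly on fatty acid genes. When sterols are plentiful in the endoplasmic reticulum, INSIG proteins hold the SREBP escort SCAP there and the factors are not activated. Growing tumour cells and lipid-laden macrophages are both known for active control of this system.

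The libraries held 67289273 to 75748162 estimated reads, and levels are given as CPM, counts divided by library size after scaling with TMM factors, which correct for differences in library composition. Levels of different genes are set side by side only as TPM, which also divides by transcript length. Each tumour is a mixture of cells, so fewer cells of a type and less RNA per cell cannot be told apart. All 8 macrophage markers rose in vanoxerine, with a summed level of 616.5 and 648 CPM in saline and 3640 and 3666 CPM in vanoxerine. Of the markers of fibroblasts 6 of 8 fell and 2 rose, all 5 of red cells fell, 3 of 5 of neutrophils fell, 5 of 8 of endothelium fell and 1 rose (median log2 fold change -1.39), and 0 of 5 proliferation genes were called by edgeR (0 higher and 1 lower at an unadjusted p under 0.05). For comparison with these counts, edgeR called 21.0% of all genes tested higher and 15.9% lower at an adjusted p under 0.05. Of the 10 colon epithelium markers 8 were tested and 3 rose. They were Epcam, at 1.75 to 4.22 CPM, Krt19, at 0.295 to 1.57 CPM, and Cdh1, the highest of the list at 11.3 to 27.6 CPM. Cdx2, which defines intestinal epithelium, had no read in any library. Among 8 adipocyte markers Lep had no read and Adipoq was at most 0.239 CPM, and the others went both ways: Fabp4 fell from 28.44 and 28.02 to 15.4 and 16.2 CPM, Cfd fell from under 1 CPM to 0, and Pparg, which macrophages also express, rose from 7.03 and 6.92 to 19.7 and 22.4 CPM. The summed level of the 8 was 37.1 and 36.9 CPM in saline and 35.4 and 39.6 CPM in vanoxerine. The part of these cell types in the results below was not tested.

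The sterol branch was lower in vanoxerine tumours, chiefly in the enzymes between acetyl-CoA and lanosterol, and the fatty acid branch was mixed. By edgeR's quasi-likelihood test at an adjusted p under 0.05, 12 of 20 sterol genes fell and 0 rose, where 15.9% of all genes tested were called lower and 21.0% higher. The number of sterol genes higher was 0 at an unadjusted p under 0.05, 0 by DESeq2 and 0 by limma-voom. In the fatty acid branch 4 of 11 genes fell and 1 rose. The median log2 fold change (vanoxerine over saline) was -0.27 over the sterol genes and -0.11 over the fatty acid genes, against -0.01 over all genes tested. In the authors' deposited table of this comparison the medians were -0.26, -0.20 and -0.0039, so the branches lay closer together. They also lay closer in a fit that took transcript lengths into account (values below). The difference between the branches was not tested. Both vanoxerine libraries lay below both saline libraries in 15 sterol genes and 7 fatty acid genes, and above them in 0 and 3, against 34.9% and 35.8% of all genes. Summed over the 20 sterol genes, the level was 1238 and 1216 CPM in saline and 976 and 981 CPM in vanoxerine. Over the 11 fatty acid genes it was 1162 and 1136 CPM in saline and 1052 and 1051 CPM in vanoxerine.

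**Figure D1:**
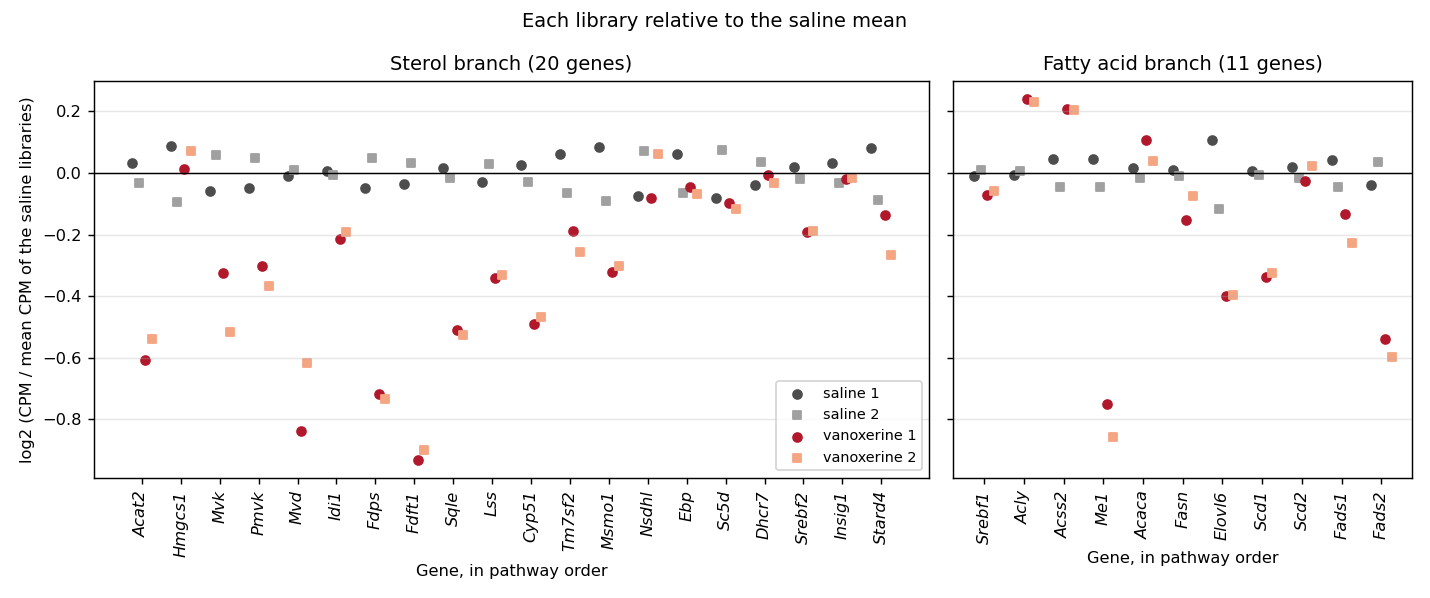
The vertical axis is the log2 ratio of each library's CPM to the mean CPM of the saline libraries, and genes are in pathway order on the horizontal axis, sterol branch left and fatty acid branch right. Each point is 1 library; both vanoxerine points of Fdft1, Fdps, Mvd and Me1 lie far below the saline points, while those of Acly and Acss2 lie above.

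By edgeR the deepest falls in the sterol branch were in Fdft1, Fdps and Mvd. Mvd, at -0.72, stood beside Fdps and is given with the mevalonate pathway below. Fdft1, squalene synthase and the enzyme that commits carbon to sterols (chromosome 14, 63145150 to 63179578, reverse strand, GRCm38), stood at 53.8 and 56.4 CPM in saline and 28.9 and 29.6 CPM in vanoxerine. Its log2 fold change was -0.92 ± 0.061 (SE; edgeR adjusted p = 1.8e-04), a level 1.89-fold lower. Fdps, which makes farnesyl diphosphate (chromosome 3, 89093588 to 89101959, reverse strand), went from 147 and 157 to 92.4 and 91.5 CPM, a change of -0.73 ± 0.053 (edgeR adjusted p = 2.48e-04). In both genes the vanoxerine libraries lay within 1 CPM of each other and far from both saline libraries. Fdps was also the most abundant of the 31 transcripts per length, at 114 and 118 TPM in saline and 84.4 and 81.1 TPM in vanoxerine.

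The mevalonate pathway, counted as far as farnesyl diphosphate and with Fdps among its genes, fell in 6 of 7 genes. Mvd, which decarboxylates mevalonate diphosphate to give isopentenyl diphosphate (chromosome 8, 122433601 to 122443422, reverse strand), went from 33.6 and 34.0 to 18.9 and 22.0 CPM (-0.72 ± 0.093, edgeR adjusted p = 0.00207). Acat2, the cytosolic thiolase that joins acetyl-CoA units, went from 30.9 and 29.5 to 19.8 and 20.7 CPM (-0.57 ± 0.075, edgeR adjusted p = 0.00227). The vanoxerine libraries were the low ones in both genes, and those of Mvd differed from each other by more than those of Acat2. Mvk, mevalonate kinase, went from 21.9 and 23.8 to 18.3 and 16.0 CPM (-0.42 ± 0.10, edgeR adjusted p = 0.0219). The next kinase, Pmvk, changed by -0.33, and the isomerase gene Idi1 by -0.20 with the weakest call of the branch (edgeR adjusted p = 0.0405). Hmgcs1, the synthase that makes HMG-CoA, was the exception: at 104 and 91.7 CPM in saline and 98.7 and 103 CPM in vanoxerine its groups overlapped, and its change of 0.04 ± 0.072 was not called (edgeR adjusted p = 0.701).

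From squalene to lanosterol all 3 genes fell. Sqle, squalene epoxidase (chromosome 15, 59315077 to 59331192, forward strand), stood at 72.5 and 70.9 CPM in saline and 50.3 and 49.8 CPM in vanoxerine, a change of -0.52 ± 0.049 (edgeR adjusted p = 6.81e-04). Its 2 libraries of each group were close together and the groups well apart. Lss, which closes the rings to give lanosterol, changed by -0.34 ± 0.058 (edgeR adjusted p = 0.00638). In this fit that was less than Fdft1 and Sqle, which act before it. The authors' deposited table does not hold this order, with Lss at -0.64, Fdft1 at -0.64 and Sqle at -0.48.

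After lanosterol the falls were fewer: 2 of 7 genes. Cyp51, the lanosterol demethylase (chromosome 5, 4081145 to 4104746, reverse strand), went from 149 and 143 to 104 and 106 CPM (-0.48 ± 0.0475, edgeR adjusted p = 7.9e-04), with no overlap between the groups. Msmo1, a methyl sterol oxidase, changed by -0.31 ± 0.069. The last steps, Nsdhl, Ebp, Sc5d and Dhcr7, lay between -0.11 and -0.01 and were not called, and Tm7sf2, a sterol reductase read at only 2.82 to 3.52 CPM, was at -0.22 ± 0.20. The median log2 fold changes of these groups of steps were -0.42 for the mevalonate pathway, -0.52 for squalene to lanosterol and -0.11 after lanosterol. The difference between these steps was not tested.

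Of the 3 genes of sterol sensing, transcription and transport, 1 fell, and their median log2 fold change was -0.19. Srebf2, which encodes the main sterol-gene SREBP, stood at 184 and 179 CPM in saline and 159 in both vanoxerine libraries, a change of -0.19 ± 0.044 (edgeR adjusted p = 0.0186). Insig1, both a brake on SREBP activation and a sterol-responsive target, was at 50.6 and 48.3 CPM in saline and 48.8 and 49.0 CPM in vanoxerine, so its groups overlapped (-0.02 ± 0.056, edgeR adjusted p = 0.843). Stard4, a carrier of cholesterol between membranes, was at -0.20 ± 0.087 and not called.

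The proximal promoters of sterol genes are known for pairing a sterol regulatory element with a CCAAT box, which NF-Y binds. RefSeq promoter windows (GRCm38.p6) matched 24 of the 31 genes, 16 sterol and 8 fatty acid; Fdft1, Fdps, Sqle, Stard4, Scd1, Scd2 and Fads1 had none. The 24 genes had 30 windows, since some have several RefSeq starts, and a gene counts as holding a motif if any of its windows does. RefSeq starts differ from the GENCODE gene bounds printed here: 20 of the 30 windows, of 16 genes, reach into the gene by 17 bases or more. In the 250 bases before the RefSeq start, CCAAT was found on either strand in 15 of the 16 sterol genes and in 4 of the 8 fatty acid genes, against 37.5% of the 27025 genes with a window and 40.3% of the 12396 of those that were tested. It was present in 8 of the 9 sterol genes that fell (the exception was Acat2) and in 7 of the 7 that were not called. In Me1 it lay only before the start of a transcript with 0 reads in all libraries. In Srebf1 it lay only before starts whose transcripts took 0 reads in saline and at most 38.5 in vanoxerine. The windows nearest the main starts of Me1 and Srebf1 held 0 matches, while Fasn and Acss2 held CCAAT in their only window. Of the sterol genes, Pmvk and Dhcr7 held it in some of their windows only. The hexamer GGGCGG, to which SP1 binds, was in 15 of the 16 sterol and 5 of the 8 fatty acid genes, against 58.3% of tested genes, and the E-box CACGTG in 3 and 0, against 9.26%. TCACNCCAC, the core of the classic sterol element, was found in Hmgcs1 alone, against 1.23% of tested genes.

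The windows of 3 genes are shown to set a sterol gene that fell (Mvd) beside one that was not called (Hmgcs1) and the fatty acid gene that rose (Acly); none of the 3 windows reaches into its gene as GENCODE M21 draws it. Capitals mark CCAAT on either strand and, in Hmgcs1, the match TCACCCCAC. Each is written 5′ to 3′ on the strand of the gene and ends just before the RefSeq start. They lie at chr8:122443423-122443672 (reverse strand, Mvd), chr13:119690101-119690350 (forward strand, Hmgcs1) and chr11:100528001-100528250 (reverse strand, Acly).
Mvd: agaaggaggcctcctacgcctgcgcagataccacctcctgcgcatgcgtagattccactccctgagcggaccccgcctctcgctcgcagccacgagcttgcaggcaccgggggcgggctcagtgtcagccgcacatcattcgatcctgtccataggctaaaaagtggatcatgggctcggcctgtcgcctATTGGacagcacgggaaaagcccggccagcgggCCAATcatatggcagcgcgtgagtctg
Hmgcs1: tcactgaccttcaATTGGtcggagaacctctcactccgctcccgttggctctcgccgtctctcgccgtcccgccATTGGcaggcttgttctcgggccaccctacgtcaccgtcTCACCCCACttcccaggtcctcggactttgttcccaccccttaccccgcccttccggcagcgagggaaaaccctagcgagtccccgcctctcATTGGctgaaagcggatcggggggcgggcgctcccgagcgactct
Acly: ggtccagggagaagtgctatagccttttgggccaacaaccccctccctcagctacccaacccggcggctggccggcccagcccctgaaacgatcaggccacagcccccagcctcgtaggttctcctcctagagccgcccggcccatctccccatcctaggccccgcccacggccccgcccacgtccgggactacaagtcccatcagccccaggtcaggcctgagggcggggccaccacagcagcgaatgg

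Mvd held 2 CCAAT matches and Hmgcs1 3, while Acly held 0 but 4 matches to GGGCGG. A match is a match of letters only, and binding was not measured.

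In the fatty acid branch, the genes that supply acetyl-CoA and NADPH went apart. Me1, the cytosolic malic enzyme that yields NADPH (chromosome 9, 86581371 to 86695953, reverse strand), stood at 132 and 124 CPM in saline and 76.3 and 70.8 CPM in vanoxerine. Its change of -0.80 ± 0.0615 (edgeR adjusted p = 2.92e-04) had the smallest p of the branch, and it is also known as a target of the antioxidant factor NRF2. Acly, ATP citrate lyase, which makes cytosolic acetyl-CoA from citrate (chromosome 11, 100476353 to 100528000, reverse strand), went the other way, from 172 and 174 to 205 and 203 CPM (0.24 ± 0.042, edgeR adjusted p = 0.00748). Acly was the 1 gene of the 31 to rise. Acss2, which makes acetyl-CoA from acetate, also had both vanoxerine libraries above both saline libraries, at 16.2 and 15.2 against 18.2 and 18.1 CPM, but its 0.21 ± 0.0865 was not called (edgeR adjusted p = 0.116).

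Of the 3 chain-building enzymes 1 fell. Fasn, fatty acid synthase, was at 198 and 196 CPM in saline and 177 and 187 CPM in vanoxerine (log2 fold change -0.11 ± 0.047, edgeR adjusted p = 0.116). The carboxylase gene Acaca, whose product makes malonyl-CoA, was at 53.8 and 52.5 against 57.3 and 54.6 CPM (0.07 ± 0.055, edgeR adjusted p = 0.36). Neither was called, although the groups did not overlap in either. Elovl6, which lengthens palmitate, fell by 0.40 ± 0.089 on the log2 scale (edgeR adjusted p = 0.017).

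Of the desaturases, which place double bonds, 2 of 4 fell. Fads2 went from 56.9 and 59.9 to 40.1 and 38.6 CPM (-0.57 ± 0.0595, edgeR adjusted p = 9.89e-04). Its neighbour on chromosome 19, Fads1, which acts later in the same route to polyunsaturated fatty acids, was at 122 and 115 against 108 and 101 CPM (-0.18 ± 0.058, edgeR adjusted p = 0.0567) and missed the threshold. The stearoyl-CoA desaturases, also neighbours on chromosome 19, were unlike in their calls. Scd1 went from 79.2 and 78.5 to 62.4 and 63.0 CPM (-0.33 ± 0.047, edgeR adjusted p = 0.00306), whereas Scd2 was at 177 and 172 against 171 and 177 CPM, with overlapping groups (edgeR adjusted p = 0.977). Whether the genes of either pair differ in response was not tested, and reads of related sequence are divided between genes by estimate.

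Srebf1, the regulator of this branch, stood at 109 and 110 CPM in saline and 104 and 105 CPM in vanoxerine (-0.06 ± 0.045, edgeR adjusted p = 0.328). The SREBP-1a and SREBP-1c forms start from separate exons, that of 1a lying upstream. The transcript from the upstream start, Srebf1-201, took 94.7% and 88.9% of the gene's reads in saline and 93.2% and 92.4% in vanoxerine. Srebf1-207, which starts at position 60210465 of chromosome 11 (GRCm38), downstream of the start of Srebf1-201 at 60220604, took 0 reads in saline and 38.5 and 16.8 in vanoxerine. Srebf1 is a known target of the sterol sensor LXR. Of 8 genes listed for LXR 6 rose and 0 fell in the same libraries, where 21.0% of all genes tested rose and 15.9% fell. Nr1h2 and Lpcat3 were not called. Of the 8, Mylip is counted again among the other sterol genes below, and Lpcat3 among the further fatty acid genes. The cholesterol exporter gene Abca1 rose from 16.4 and 16.1 to 141 and 137 CPM. Whether these changes bear on Srebf1 was not tested.

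**Figure D2:**
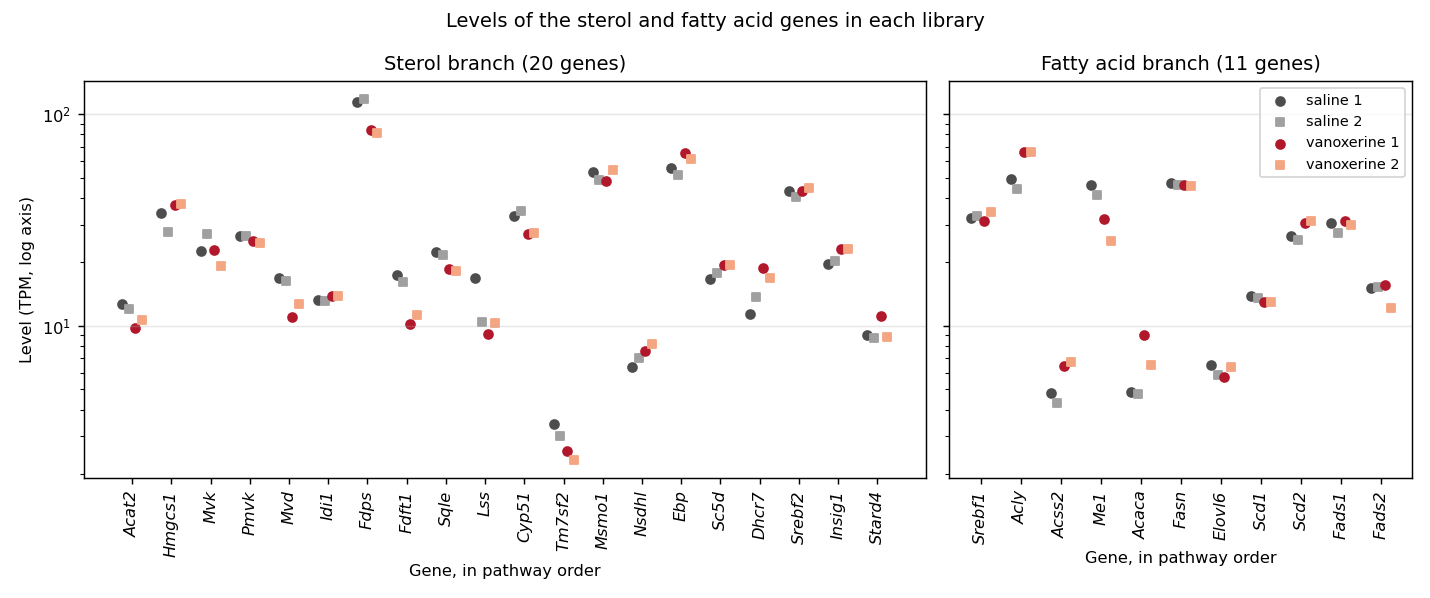
The vertical axis is the level in TPM on a log scale and genes are in pathway order on the horizontal axis, each point 1 library. Fdps is highest in all libraries, at 81.1 to 118 TPM, and Tm7sf2 lowest, at 2.33 to 3.42 TPM; Acly is at 44.3 to 49.1 TPM in saline and 65.8 to 66.3 TPM in vanoxerine.

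The assignment of reads to transcripts shifted within some of these genes. The Acly transcript Acly-207, which starts inside the gene, took 47.2% and 44.7% of its reads in saline and 26.5% and 24.6% in vanoxerine, while Acly-203 took 48.4% and 51.9% against 56.3% and 64.3%. For Fasn the shorter Fasn-205 took 50.6% and 48.6% against 65.6% and 68.5%, and Fasn-201 35.2% and 36.7% against 22.2% and 20.1%. In these transcripts the groups did not overlap, no test was run, and the shares are Salmon's estimates among overlapping isoforms. Some short transcripts were assigned reads in few libraries, which moves the average transcript length of the gene there. Lss-205, of 425 bases, took 129 reads in saline 1, for 7.48 TPM, and 0 in the other 3 libraries. Acaca-206, of 431 bases, took 37.8 reads in vanoxerine 1, for 2.80 TPM, 4.74 in vanoxerine 2 and 0 in saline.

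When the fit took average transcript lengths into account, 6 sterol genes fell and 0 rose, and 3 fatty acid genes fell and 1 rose. The 6 were Fdft1, Fdps, Mvd, Sqle, Cyp51 and Acat2, and the 3 were Me1, Scd1 and Fasn, which then stood at -0.26 (edgeR adjusted p = 0.0221). Lss stood at -0.73 without a call, Fads2 at -0.37 without a call and Acaca at 0.45 without a call. On the scale of log2(TPM + 1) the median of all genes was 0.21 instead of -0.01, and 4 sterol genes fell (Fdft1, Fdps, Mvd and Cyp51), 0 fatty acid genes fell and 2 rose (Acly and Acss2). With the TPM values rescaled by TMM factors, 7 sterol and 3 fatty acid genes fell and 0 rose. Fdft1, Fdps, Mvd and Cyp51 were called lower in all 17 alternatives, and Me1, Sqle and Acat2 each in 16. In the authors' deposited table, 9 of the 20 sterol genes were lower and 0 higher at an adjusted p under 0.05, and 3 of the 11 fatty acid genes were lower and 2 higher (Acly and Acaca). Fdft1 there had a log2 fold change of -0.64 and Fdps of -0.71, and Idi1, Msmo1, Srebf2, Elovl6 and Fads2, called above, were not called in the authors' deposited table.

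**Figure D3:**
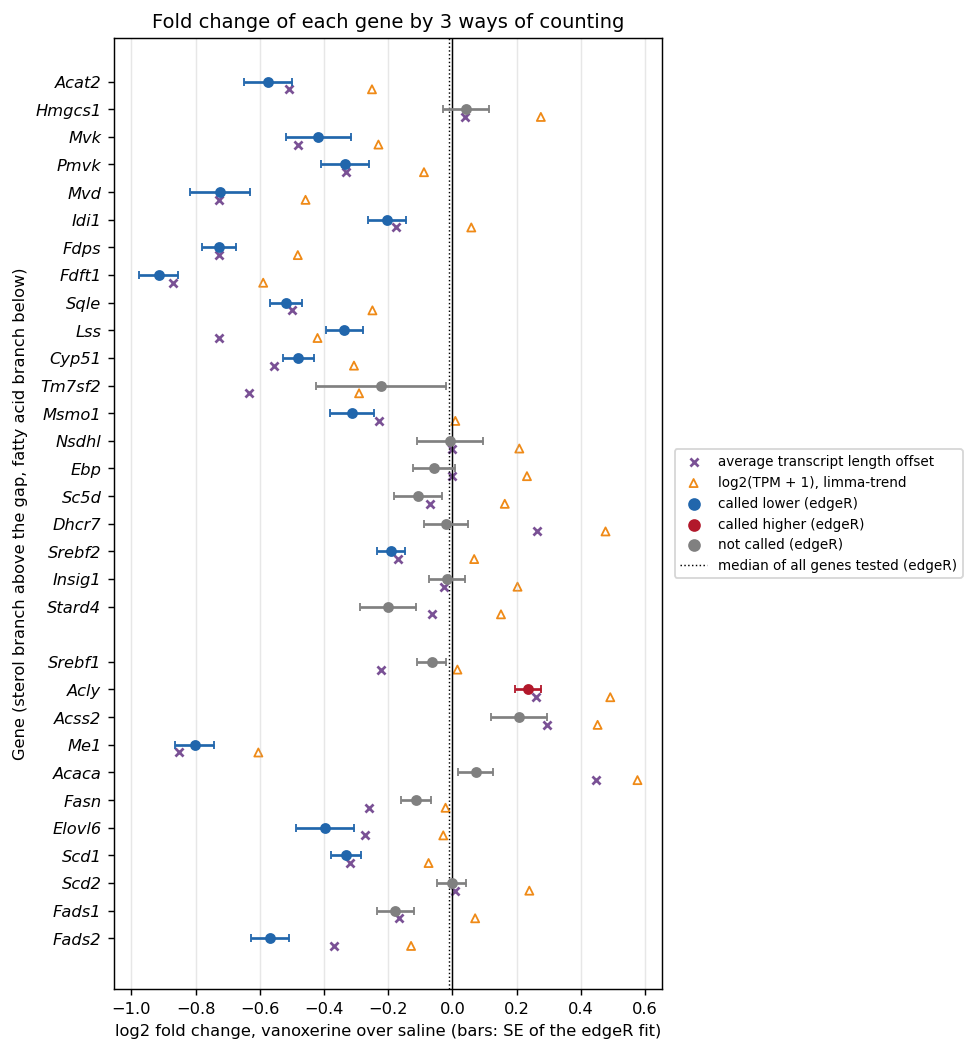
The horizontal axis is the log2 fold change of vanoxerine over saline and each row is 1 gene. Circles with SE bars are the edgeR fit on counts, crosses the fit with transcript lengths and triangles log2(TPM + 1); Fdft1 is at -0.59 or lower in all 3, while Idi1, Msmo1 and Srebf2 are below 0 by counts and above 0 by TPM.

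Other genes of the sterol system went both ways: of 18 listed, 6 rose and 4 fell, against 21.0% higher and 15.9% lower among all genes tested. The escort gene Scap was at 69.7 and 72.0 CPM in saline and 72.6 and 72.7 CPM in vanoxerine and was not called (0.04 ± 0.048, edgeR adjusted p = 0.616). Genes of lysosomal cholesterol export rose beside the macrophage markers given above: Npc1 by 0.58 ± 0.053 and Npc2 by 0.44 ± 0.039. Mylip, an LXR-induced ubiquitin ligase, rose by 1.25 ± 0.084, while the subunits of NF-Y differed: Nfya rose by 0.41 ± 0.069, Nfyb fell by 0.37 ± 0.079 (edgeR adjusted p = 0.0143) and Nfyc was at -0.01 ± 0.064 and not called.

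Of 26 further genes of fatty acid and glyceride metabolism, 25 were tested, 6 rose and 5 fell, shares near the 21.0% and 15.9% of all genes tested. The acyl-CoA synthetase gene Acsl1 rose, from 24.4 and 24.9 to 51.3 and 49.3 CPM (1.03 ± 0.063, edgeR adjusted p = 1.37e-04), as did Acsl5 (0.92 ± 0.059) and the mitochondrial acetyl-CoA synthetase gene Acss1 (1.77 ± 0.12), while Acsl3 was not called (-0.16 ± 0.080). Of the triglyceride synthesis genes, Dgat1 rose by 0.58 ± 0.060 and Dgat2 fell by 0.41 ± 0.077 (edgeR adjusted p = 0.00904). The elongase gene Elovl5 rose by 0.30 ± 0.048, and the reductase gene Tecr, of the elongation cycle, changed by -0.33 ± 0.053. The citrate carrier gene Slc25a1, which feeds Acly, was at 51.7 and 51.0 against 46.4 and 46.2 CPM and missed the threshold (edgeR adjusted p = 0.0756). Mlxipl, which encodes the carbohydrate-responsive factor ChREBP, was read at 0.154 to 0.228 CPM only.

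The number of calls changed when 1 library was left out. Without vanoxerine 1 or without vanoxerine 2, 6 sterol genes fell in place of 12, 2 fatty acid genes fell in place of 4, and Acly was not called. Without saline 1, 13 sterol genes fell and Hmgcs1 rose, and 6 fatty acid genes fell and 2 rose; without saline 2, 13 and 6 fell. With upper-quartile factors, which moved the median of all genes to -0.14, 13 sterol genes and 7 fatty acid genes fell and 0 rose.

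**Figure D4:**
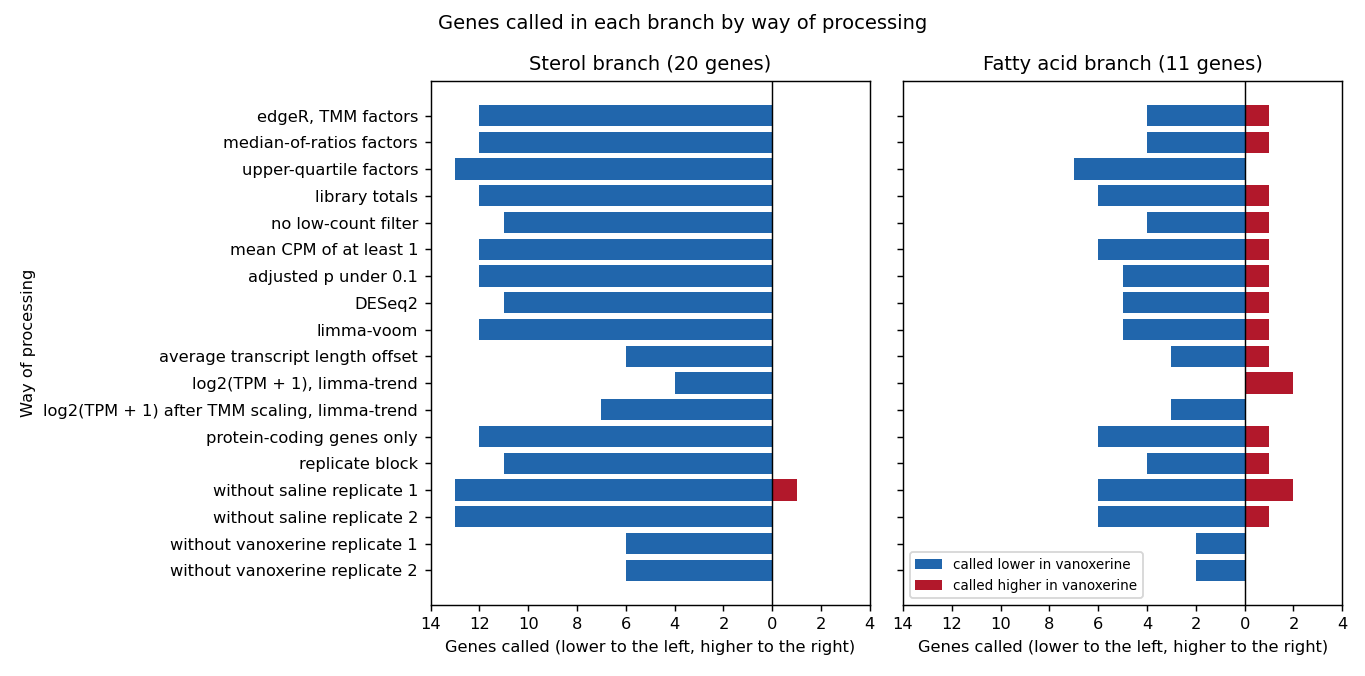
Bars give the number of genes called lower (left of 0) and higher (right of 0) in vanoxerine under each way of processing, for the 20 sterol and the 11 fatty acid genes. The sterol branch ranges from 4 to 13 genes lower and the fatty acid branch from 0 to 7.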

How the data were processed

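RNA of the 4 tumour libraries was quantified by the authors. The submitters' processing notes name fastp, Salmon 1.3.0, DESeq2 and GRCm38 without roles. The label sources used here give no annotation release or settings. Per the file headers, the authors deposited for each library an estimated count (reads assigned to a transcript), a TPM and an effective length for 140992 transcripts. The authors' deposited table gives a base mean (signal), a log2 fold change with SE, and per gene the p-value before and after adjustment. The base means were close to the mean estimated counts of these libraries (median log2 ratio 0.0012), but its 4 per-library FPKM columns match no sample name and were not used.

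Transcripts were assigned to genes with GENCODE M21, which held 139791 of them and 99.56% to 99.63% of the reads. Counts were summed per gene, rounded, and fitted over 18758 genes with edgeR 4.0.16 (R 4.3.3, TMM factors, default filter with minimum count 10 and minimum total 15, quasi-likelihood test, Benjamini-Hochberg adjustment, calls under 0.05). SE is the log2 fold change over the root of the F statistic. Alternatives used DESeq2 1.42.0, limma 3.58.1 (voom, and trend on log2(TPM + 1) with a mean TPM of at least 0.5), other scalings and filters, a length offset, the replicate number as a block and 1 library left out. With 1 library left out, the single library of that group takes its spread from the other group. The test was tested on simulated data. With 2 against 2 libraries an exact permutation test cannot go below p = 0.333.

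The genes and lists were chosen with earlier results of these data known. Genes given library by library are those called with a log2 fold change beyond 0.4 either way, the regulators, and the smallest p per branch and direction; Hmgcs1, Acss2, Fasn, Acaca, Fads1, Scd1 and Scd2, and of the further lists Nfyb, Nfyc, Acsl3 and Dgat2, were added after their values were seen. Of the further lists, up to 6 called genes with the smallest p, and some chosen whatever their p, are named; some genes that this rule names are not reported here.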

Additional observations from a re-analysis of the deposited data

How the results depend on the processing

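Without any single library the sterol genes called lower numbered 6 to 13 and those called higher 0 to 1, and the sterol median log2 fold change ranged from -0.28 to -0.22; for the fatty acid genes these were 2 to 6, 0 to 2, and -0.13 to -0.076. With the transcript length offset, log2(TPM + 1), and log2(TPM + 1) after TMM scaling (added after seeing the data), sterol genes lower were 6, 4 and 7. With log2(TPM + 1), 0 fatty acid genes were lower and 2 higher; after TMM scaling 0 were higher; with upper-quartile factors 7 were lower and 0 higher. Medians of the sterol and fatty acid genes were -0.40 and -0.25 with upper-quartile factors, -0.31 and -0.16 with library totals, -0.25 and -0.096 with no low-count filter, -0.31 and -0.15 at a mean CPM of at least 1, -0.28 and -0.22 with the length offset, -0.30 and -0.15 with protein-coding genes only, and -0.0397 and 0.0157 with log2(TPM + 1), where the median of all genes was 0.21; after TMM scaling of TPM the fatty acid median was -0.22. The causes of these moves were not tested.

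The replicate number did not pair the libraries by the labels, and same-numbered deviations correlated at -0.041; with the replicate block 11 sterol genes were lower and 0 higher (medians -0.27 and -0.11), and 4 fatty acid genes were lower and 1 higher.

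Values that changed sign lay near 0 or came with TPM, apart from Dhcr7 with the length offset. With log2(TPM + 1) they were Insig1 at 0.20, Idi1 at 0.059, Dhcr7 at 0.48, Sc5d at 0.16, Msmo1 at 0.0092, Nsdhl at 0.21, Stard4 at 0.15, Srebf2 at 0.068, Ebp at 0.23, Srebf1 at 0.016, Scd2 at 0.24 and Fads1 at 0.071; after TMM scaling they were Dhcr7 at 0.25 and Scd2 at 0.0094. With the length offset Dhcr7 stood at 0.27 and Scd2 at 0.0092, with upper-quartile factors Hmgcs1 at -0.092 and Acaca at -0.061, with library totals Hmgcs1 at -0.0044, and with no low-count filter Insig1 at 0.0001, Nsdhl at 0.0098 and Scd2 at 0.015. With 1 library left out, Hmgcs1 ranged from -0.047 to 0.13, Insig1 from -0.0488 to 0.0068, Dhcr7 from -0.0657 to 0.018, Nsdhl from -0.0887 to 0.068 and Scd2 from -0.0268 to 0.022. Idi1, Msmo1 and Srebf2 were the called genes among them. With 2 libraries a group, the number of libraries limits the precision of every value here.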
